A study of Arabis alpina with 19 samples.

Results

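A set of 28 transcript targets was higher, in the group means, in the mature perennial stem and in the short annual internode of Arabis alpina than at every younger age and near the inflorescence. Their levels differed widely, from targets with hardly any counts to 1 above 100 TPM in every library. A target is a transcript model of the kallisto reference, named here by its identifier. Members were chosen from the mean TPM (a length-scaled transcript abundance) of the 6 groups: on log2(mean + 1), the largest gap between neighbouring groups had to be at least 1, only IV_PZ and IV_AZ_si could lie above it, and both needed a mean of at least 5 TPM. Of the 30158 targets in the series table, 28 met this rule (0.0928%), below the limit of 150, so none was trimmed. Because the rule used these levels, the distance of IV_PZ and IV_AZ_si from the other 4 groups is given below as a description, without a test.

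All 19 libraries came from lateral stems of the mutant perpetual flowering 1-1 (pep1-1), with 12 plants per replicate. IV_PZ is the first internode of the perennial zone (PZ) at 30 weeks, with 3 libraries, and IV_AZ_si is a short internode of the annual zone (AZ) of that age, with 4. IV_AZ_if, another 30-week annual internode, lay near the inflorescence and had 3 libraries. The younger perennial zones III_PZ (7 weeks), II_PZ (5 weeks) and I_PZ (4 weeks) had 3 libraries per age. There was no wild type, so every group carries the mutation.

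Arabis alpina is a perennial relative of Arabidopsis. PEP1 is its counterpart of the Arabidopsis floral repressor FLC, and the mutant flowers without a period of cold. In a flowering lateral stem the lower, perennial zone persists after flowering, thickens by the activity of a vascular cambium and stores reserves, while the annual zone above it bears the inflorescence and later dies. The series was designed to follow secondary growth and storage in the perennial zone. No names or annotation of the targets were used here, so the roles of these 28 targets are not described, and the tissues were not checked against cell type markers. In whole internodes, a lower share of the cells that make a transcript and less of it per cell cannot be told apart.

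Together the 28 targets were a small part of the transcript pool, higher at 7 than at 5 weeks and highest at 30 weeks in the perennial zone. Their summed level was 347 to 383 TPM at 4 weeks, 262 to 499 TPM at 5 weeks, 777 to 857 TPM at 7 weeks and 3708 to 3937 TPM at 30 weeks. In the annual zone it was 1811 to 2588 TPM in IV_AZ_si, against 743 to 953 TPM in IV_AZ_if. The internode near the inflorescence thus held about as much as the perennial zone at 7 weeks, and the short internode lay between these and the mature perennial zone, with no overlap of libraries. A single short target, Aa_G325990.h1, made up 54.2% to 60.3% of the sum in IV_PZ but 2.57% of the counts of the members in IV_PZ and IV_AZ_si. Counted as reads and not per length, the members took 850 to 878 CPM (counts scaled to library size) in IV_PZ, 410 to 613 in IV_AZ_si and 140 to 161 in IV_AZ_if.

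I_PZ replicate 3, which the rule left out as a library holding III_PZ transcripts, took no part in the choice of members. Their sum there was 379 TPM, within the 347 and 383 TPM of I_PZ replicates 2 and 1. Of the 28 targets, 14 were above both other I_PZ libraries in it, 4 were below both and 10 lay between or were tied. Without Aa_G325990.h1 the sum was 170 TPM in I_PZ replicate 3, above the 132 and 104 TPM of replicates 1 and 2, and below the 328 to 357 TPM of III_PZ.

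**Figure D1:**
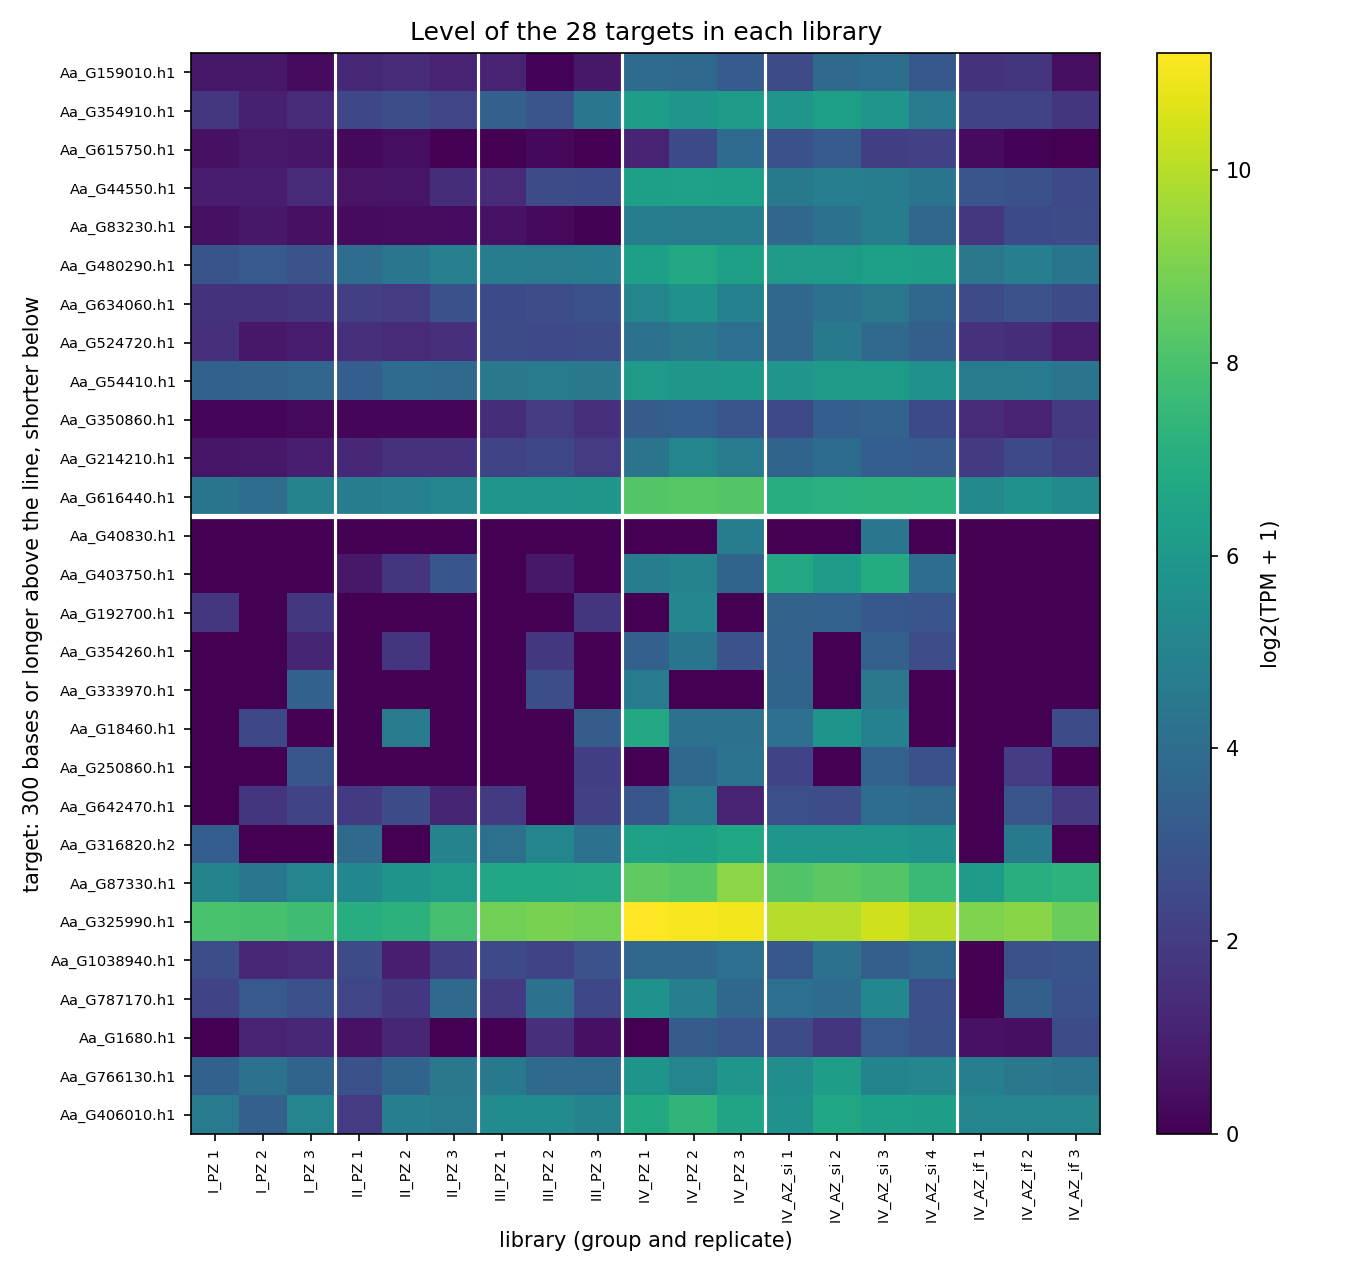
Levels of the 28 targets (rows) in the 19 libraries (columns, by group and replicate) as log2(TPM + 1), shown by colour. White vertical lines separate groups, and the thick white line separates the 12 targets of at least 300 bases from the 16 shorter ones, whose zeros are scattered over libraries of every group.

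The members fell into 2 kinds by coding length. The rule set no limit on length, but it worked on TPM, which depends on it. Length is thus not independent of the choice. There were 12 targets of 465 to 4365 bases and 16 of 117 to 276 bases. Targets under 300 bases were 13.3% of the series table, in which the median length was 963 bases, against a median of 247.5 bases among the members. For the 12 longer targets, 496 to 31650 estimated counts lay behind the 7 libraries of IV_PZ and IV_AZ_si, with a median of 7609. For the 16 shorter ones there were 11 to 2924, with a median of 125.5. The effective length, by which TPM is scaled, was 4.92 to 77.0 bases in the shorter targets, so that 1 count was worth 0.320 to 5.15 TPM, against 0.00594 to 0.0931 TPM in the longer ones. For the shortest members the threshold of 5 TPM was therefore 1 or a few counts.

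The 7 libraries of IV_PZ and IV_AZ_si were all above the other 12 for 19 of the 28 targets, including all 12 longer ones and 7 of the 16 shorter ones. Of the 30158 targets, 3.03% had this property, but the rule chose for it, so nothing is read from the contrast. At least 10 counts in each of the 7 libraries were found for 20 of the 28, and 7 of the other 8 had no count in at least 1 of them.

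**Figure D2:**
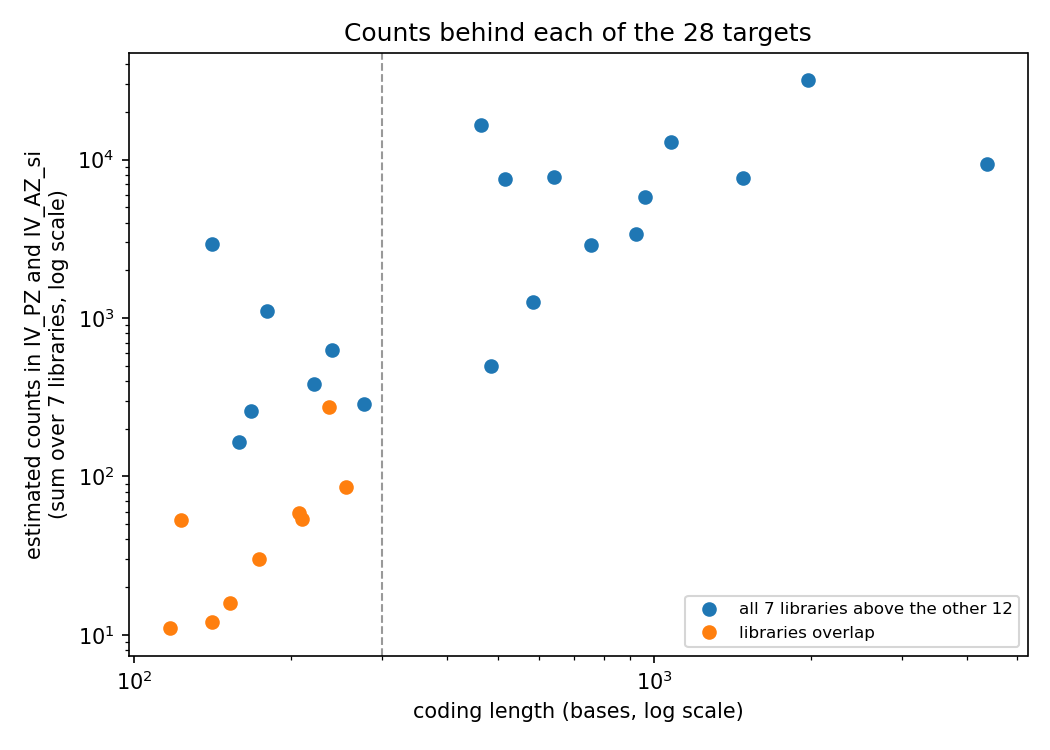
Estimated counts summed over the 7 libraries of IV_PZ and IV_AZ_si against coding length, both on log scales, with 1 point per target and a dashed line at 300 bases. Each of the 12 targets right of the line had its 7 libraries above the other 12, and the 9 targets whose libraries overlap had between 11 and 274 counts.

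Among the longer targets, the ratio of mean TPM in IV_PZ over III_PZ was largest for Aa_G615750.h1, Aa_G83230.h1 and Aa_G44550.h1, at 108, 102 and 21.5. Aa_G83230.h1 (1485 bases) had 0.420, 0.653 and 0.412 TPM at 4 weeks, 0.275, 0.284 and 0.289 TPM at 5 weeks, 0.456, 0.230 and 0.0546 TPM at 7 weeks and 24.8, 24.6 and 26.0 TPM at 30 weeks. In the annual zone it had 11.9, 17.1, 25.3 and 12.2 TPM in IV_AZ_si, against 2.38, 4.77 and 5.08 TPM in IV_AZ_if. It was thus near 0 in all 9 young perennial libraries, even in IV_PZ, where the 3 libraries lay within 2 TPM of each other, and uneven in IV_AZ_si, where replicate 3 reached the level of IV_PZ. The mean of IV_PZ was 102 times that of III_PZ, and the mean of IV_AZ_si was 4.08 times that of IV_AZ_if.

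Aa_G44550.h1 (1080 bases) had 0.781, 0.853 and 1.49 TPM at 4 weeks, 0.524, 0.553 and 1.80 TPM at 5 weeks, 1.57, 5.15 and 4.73 TPM at 7 weeks and 81.9, 84.7 and 79.8 TPM at 30 weeks. It had 22.1, 26.4, 25.9 and 19.5 TPM in IV_AZ_si, against 6.85, 5.93 and 4.55 TPM in IV_AZ_if. Here the perennial zone stood well above the short internode, by 3.50 times in the means. Aa_G615750.h1 (486 bases) was much weaker and less even, with 1.19, 4.77 and 14.3 TPM in IV_PZ and 6.02, 8.19, 3.18 and 3.58 TPM in IV_AZ_si, against at most 0.693 TPM in the other 12 libraries. IV_PZ replicate 3 carried 70.6% of its IV_PZ sum.

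The rule placed IV_PZ above III_PZ for every member, so only the steps up to 7 weeks were free. With I_PZ from replicates 1 and 2, the mean was higher at each later age in 6 of the 16 shorter targets. The share over all targets was not computed. The same order held for 9 of the 12 longer targets, including Aa_G350860.h1 with mean TPM of 0.117 at 4 and 0.121 at 5 weeks. With all 3 I_PZ libraries, the 4-week mean was above the 5-week mean for Aa_G350860.h1 (0.144 TPM) and Aa_G44550.h1 (1.04 TPM). The edgeR fit used below gave both a log2 fold change below 0 for 5 over 4 weeks (-0.16 and -0.01). For 7 over 5 weeks it gave -0.07 for Aa_G480290.h1. None of these steps passed, so their direction is not settled. Aa_G354910.h1 (642 bases) is among the 9. It had 2.44, 0.998 and 1.59 TPM at 4 weeks, 4.23, 5.50 and 4.08 TPM at 5 weeks, 9.85, 6.81 and 20.3 TPM at 7 weeks and 77.3, 56.4 and 71.4 TPM at 30 weeks. It had 56.3, 81.2, 57.1 and 24.6 TPM in IV_AZ_si, against 3.74, 3.93 and 2.31 TPM in IV_AZ_if. In the internode near the inflorescence it was thus under every library of 5 and 7 weeks, while IV_AZ_si replicate 4 lay far below its group mates. Its counts were not whole numbers in 10 libraries, so it shares reads with other targets.

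Aa_G350860.h1 (4365 bases), the longest member, had 0.106, 0.127 and 0.200 TPM at 4 weeks, 0.104, 0.135 and 0.125 TPM at 5 weeks, 1.75, 2.99 and 1.88 TPM at 7 weeks and 8.80, 9.33 and 6.76 TPM at 30 weeks. It had 4.59, 9.29, 10.5 and 4.69 TPM in IV_AZ_si, against 1.52, 1.19 and 2.75 TPM in IV_AZ_if. It was almost absent before 7 weeks, and at 30 weeks the libraries of IV_PZ and IV_AZ_si overlapped. It also shares reads with other targets, with counts that were not whole in 6 libraries.

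Aa_G480290.h1 (516 bases) was above its 4-week level already at 5 weeks, with 6.59, 7.67 and 6.37 TPM at 4 weeks, 15.3, 20.4 and 29.0 TPM at 5 weeks, 26.0, 22.7 and 24.8 TPM at 7 weeks and 79.5, 109 and 82.7 TPM at 30 weeks. It had 67.5, 69.1, 80.6 and 74.5 TPM in IV_AZ_si, against 21.1, 27.2 and 19.5 TPM in IV_AZ_if. The values of 5 weeks, 7 weeks and IV_AZ_if overlapped, and all were above those of 4 weeks. Aa_G54410.h1 (1977 bases), which held the most counts of any member, was present throughout: it had 9.32 to 14 TPM at 4 and 5 weeks, 21.8, 23.9 and 20.9 TPM at 7 weeks and 63.7, 60.9 and 62.8 TPM at 30 weeks, with 56.9, 64.9, 68.7 and 48.9 TPM in IV_AZ_si, against 24.4, 23.4 and 19 TPM in IV_AZ_if. Its mean was nearly the same in IV_PZ and IV_AZ_si (ratio 1.04), and likewise in III_PZ and IV_AZ_if.

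The other 5 longer targets were Aa_G616440.h1, Aa_G634060.h1, Aa_G524720.h1, Aa_G214210.h1 and Aa_G159010.h1. Aa_G616440.h1 (465 bases), the most abundant of the longer targets, had 14.9 to 31.4 TPM at 4 weeks, 26.1, 28.7 and 34.5 TPM at 5 weeks, 55.8, 58.5 and 60.5 TPM at 7 weeks and 293, 314 and 299.9 TPM at 30 weeks, with 126, 138, 146 and 143 TPM in IV_AZ_si, against 37.9, 49.2 and 39.4 TPM in IV_AZ_if. IV_PZ lay above IV_AZ_si without overlap. Aa_G634060.h1 had 34.6, 51.3 and 29.2 TPM in IV_PZ and 13, 17.8, 21.5 and 12.5 TPM in IV_AZ_si, against 2.12 to 6.23 TPM in the other libraries. Aa_G214210.h1 had 18.7, 34.6 and 24.4 TPM in IV_PZ and 11.4, 14.5, 9.28 and 8.45 TPM in IV_AZ_si, against 0.573 to 4.49 TPM. For both, again, no IV_AZ_si library reached the lowest of IV_PZ. Aa_G524720.h1 had 17.3, 21.3 and 16.3 TPM in IV_PZ and 11.9, 22.4, 13.7 and 9.63 TPM in IV_AZ_si, against 0.671 to 5.00 TPM. Aa_G159010.h1 had 14.2, 13.3 and 8.59 TPM in IV_PZ and 5.12, 13.7, 15.6 and 7.51 TPM in IV_AZ_si, against 0.0696 to 2.37 TPM. For both of these the libraries of the perennial zone and of the short internode overlapped.

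**Figure D3:**
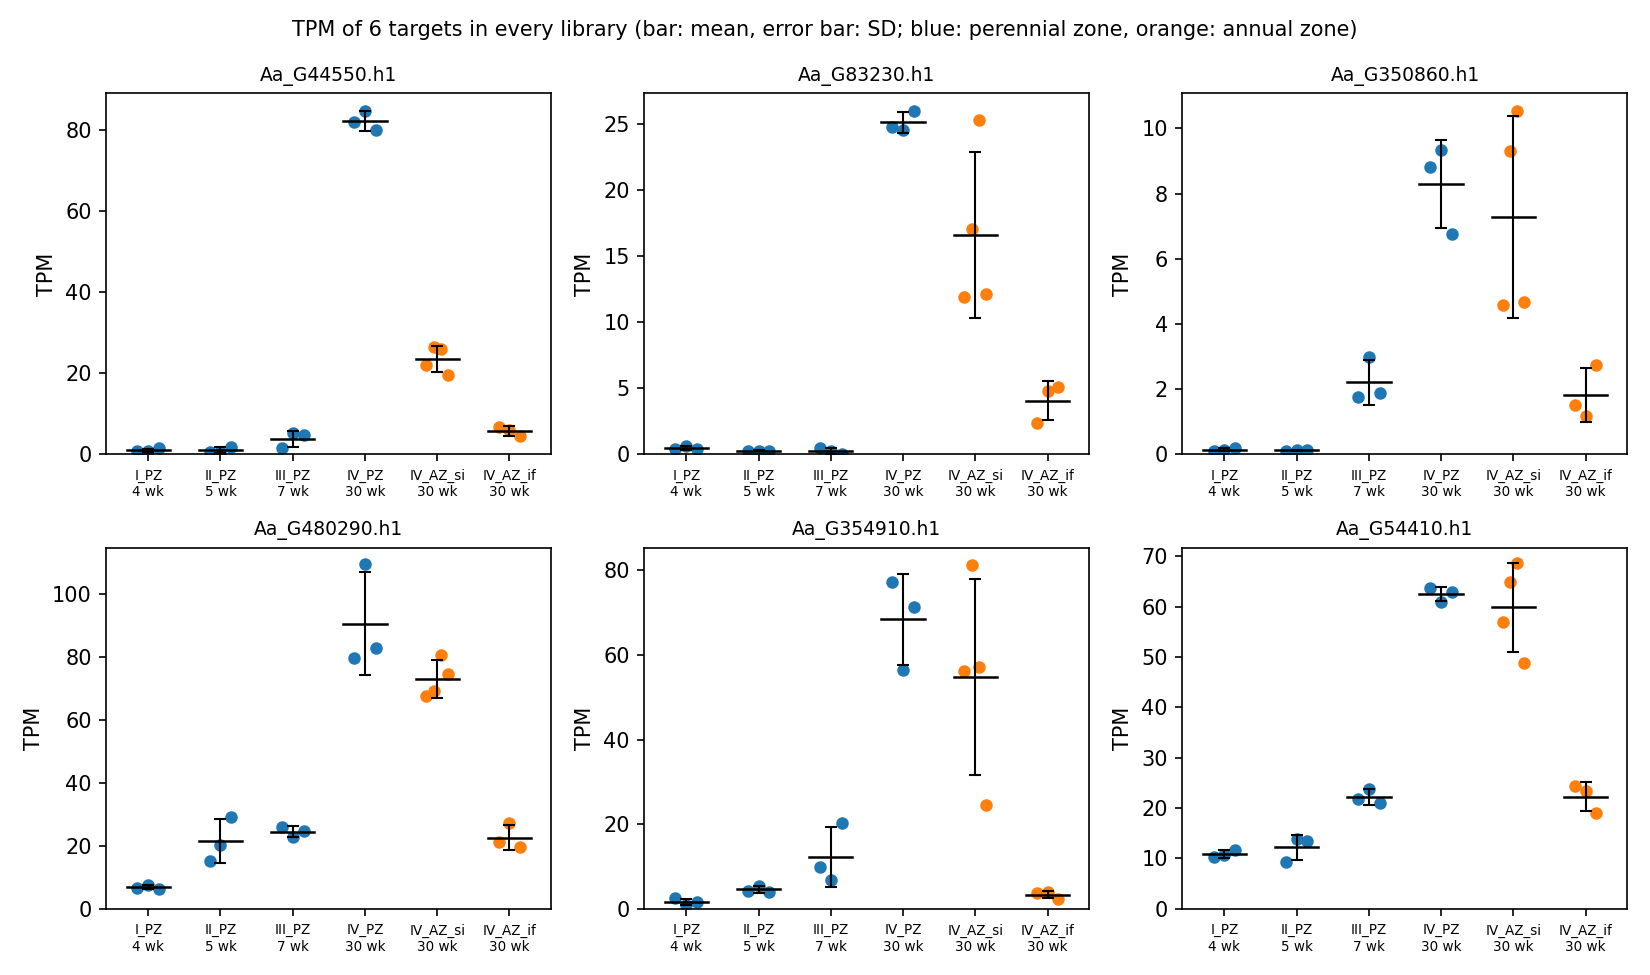
TPM of 6 longer targets in every library, by group, with ages in order and the annual internodes at the right; points are libraries, horizontal bars means and error bars SD (n = 3, and n = 4 for IV_AZ_si). Aa_G83230.h1 lies under 1 TPM at 4, 5 and 7 weeks, Aa_G480290.h1 is already at 15.3 to 29.0 TPM at 5 weeks, and IV_AZ_si spreads widely for Aa_G83230.h1, Aa_G350860.h1 and Aa_G354910.h1.

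Of the shorter targets, Aa_G403750.h1 was 1 of 3 members whose mean was not higher in IV_PZ than in the short internode. It is 240 bases long and had 1, 4 and 12 counts at 5 weeks, 0, 1 and 0 counts at 7 weeks and 47, 59 and 21 counts in IV_PZ, and no count in any library of I_PZ or IV_AZ_if. In TPM it had 25.4, 31.5 and 11.1 in IV_PZ and 107, 70.2, 117 and 14.9 in IV_AZ_si. The libraries of IV_PZ and IV_AZ_si overlapped through IV_AZ_si replicate 4, which was lower than 2 of the 3 perennial libraries. The other shorter targets with a higher mean in IV_AZ_si were Aa_G333970.h1 and Aa_G1680.h1, with 11 and 86 counts over the 7 libraries.

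Aa_G325990.h1 had the highest TPM of all members and is 141 bases long. Its level was 250.3, 243 and 209 TPM at 4 weeks, 125, 147 and 236 TPM at 5 weeks, 449, 500.1 and 451 TPM at 7 weeks and 2373, 2172 and 2011 TPM at 30 weeks, with 1005, 985, 1359 and 1026 TPM in IV_AZ_si, against 519.8, 589 and 409 TPM in IV_AZ_if. These values rest on 655, 608 and 568 counts in IV_PZ and 230, 237, 337 and 289 counts in IV_AZ_si, so the order of these groups is well counted. Libraries of 4 and 5 weeks overlapped, as did those of 7 weeks and IV_AZ_if, so the order within these pairs is not settled. The TPM of Aa_G325990.h1 is scaled by an effective length of 6.28 bases. Aa_G87330.h1 (180 bases), the next in TPM, had 359, 315 and 605 TPM in IV_PZ and 284, 336, 299 and 185 TPM in IV_AZ_si, against 19.9 to 153 TPM in the other 12 libraries, on 92 to 302 counts in each of the 7 libraries above the gap. Aa_G406010.h1 (168 bases) had 111, 161 and 93.3 TPM in IV_PZ and 51.5, 104, 78.3 and 73.9 TPM in IV_AZ_si, against 3.0 to 41.5 TPM.

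The largest gap of all belonged to a target with hardly any counts. Aa_G40830.h1 (141 bases) had 7 counts in IV_PZ replicate 3, 5 counts in IV_AZ_si replicate 3 and none in the other 17 libraries, which gave 24.8 and 20.2 TPM and group means of 8.26 TPM in IV_PZ and 5.04 TPM in IV_AZ_si. Aa_G192700.h1 (174 bases) had 0, 16 and 0 counts in IV_PZ and 4, 4, 3 and 3 counts in IV_AZ_si, against 3 counts in the other 12 libraries together. Its IV_PZ mean of 12.0 TPM thus came from 1 library. Aa_G333970.h1 (117 bases), with 5, 0 and 0 counts in IV_PZ and 2, 0, 4 and 0 counts in IV_AZ_si, also had 2 counts in I_PZ replicate 3, which its short length turned into 10.3 TPM. Along with these, Aa_G354260.h1, Aa_G18460.h1, Aa_G250860.h1, Aa_G642470.h1 and Aa_G1680.h1 had fewer than 10 counts in at least 1 of the 7 libraries. The remaining shorter targets, Aa_G316820.h2, Aa_G1038940.h1, Aa_G787170.h1 and Aa_G766130.h1, had 10 to 91 counts in each of them, and Aa_G766130.h1 shares reads with other targets.

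The rule says nothing about which of the 2 groups above the gap is higher, although it bounds their distance, so this difference was tested. Among the 22 members that passed the filter on low counts, 5 were higher and 1 was lower in IV_PZ than in IV_AZ_si (edgeR quasi-likelihood test, adjusted p under 0.05), and 16 did not pass. Of all 23528 targets tested, 25.7% were higher and 31.4% lower. The rule keeps the pair close, which limits the calls among members, so the members' share is not read against this background. The fitted difference was positive for 21 of the 22, with a median of 0.40 on the log2 scale. Its direction is not settled for the 16 that did not pass. The median was -0.04 over all targets, but the rule used both levels, so the medians are not compared either. Over all 28 members, the mean TPM was higher in IV_PZ for 25, including all 12 longer targets.

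The 5 targets that were higher in IV_PZ had a log2 fold change near or above 1. It was 1.84 ± 0.29 (SE) for Aa_G44550.h1, with an adjusted p of 3.05e-05 in edgeR. Aa_G214210.h1 had 1.27 ± 0.21 (SE; edgeR adjusted p = 6.83e-05) and Aa_G634060.h1 had 1.26 ± 0.23 (SE; edgeR adjusted p = 0.000157). Aa_G616440.h1 had 1.16 ± 0.16 (SE; edgeR adjusted p = 6.57e-06) and Aa_G325990.h1 had 1.03 ± 0.18 (SE; edgeR adjusted p = 8.08e-05). All 5 were higher in each of the 3 IV_PZ libraries than in any of the 4 IV_AZ_si libraries, and all kept their call under each of the 18 alternatives tried. The libraries of IV_PZ and IV_AZ_si did not overlap, in either direction, for 57.5% of all targets. Aa_G403750.h1 was lower, with -1.74 ± 0.66 (SE; edgeR adjusted p = 0.0373), but its libraries overlapped and the call depended on single libraries. In edgeR the adjusted p was 0.0746, 0.0505 and 0.130 without IV_PZ replicates 1, 2 and 3, and 0.0896, 0.0527 and 0.105 without IV_AZ_si replicates 1, 2 and 3; the log2 fold changes were -1.83, -2.01, -1.41, -1.56, -1.78 and -1.45 in the same order. Without IV_AZ_si replicate 4, the call of Aa_G403750.h1 held (log2 fold change -2.07, edgeR adjusted p = 0.00624). Leaving out 1 library also added calls of members higher in IV_PZ. These were Aa_G83230.h1 without IV_AZ_si replicate 3 (log2 fold change 0.91, edgeR adjusted p = 0.0103), and Aa_G87330.h1 without IV_PZ replicate 2 (0.88, adjusted p = 0.0259) or IV_AZ_si replicate 2 (0.78, adjusted p = 0.0475). With all their libraries but only these groups in the fit, 8 members were called. Aa_G83230.h1 (edgeR adjusted p = 0.0398) and Aa_G480290.h1 (0.0234) were added, both higher in IV_PZ. Limma-trend on log2(TPM + 1) also called Aa_G83230.h1 (adjusted p = 0.0293). At the other end, Aa_G54410.h1 differed by 0.10 ± 0.12 (SE), less than 1 SE, on 3689 or more counts in each of the 7 libraries.

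Below the gap, the internode near the inflorescence and the perennial zone at 7 weeks were the next highest groups: III_PZ was the highest of the 4 lower groups for 13 members, IV_AZ_if for 10, I_PZ for 2 and II_PZ for 2. Aa_G40830.h1 had no count in any of the 4. Compared with III_PZ, 1 of the 22 tested members was higher in IV_AZ_if and 2 were lower, while 29.8% and 27.6% of all targets were. The rule also bounds the distances among the 4 lower groups, so the members' shares in these comparisons are not read against those of all targets. Aa_G83230.h1 was higher in IV_AZ_if by 4.27 ± 0.45 on the log2 scale (SE; edgeR adjusted p = 3.20e-07), and by 5.03 without III_PZ replicate 1, which held most of its counts in III_PZ. Aa_G354910.h1 was lower by -1.69 ± 0.43 (SE; edgeR adjusted p = 0.00270) and Aa_G524720.h1 by -1.44 ± 0.36 (SE; edgeR adjusted p = 0.00226), with 0.796 to 2.00 TPM in IV_AZ_if and 4.63 to 5.00 TPM in III_PZ. All 3 had groups without overlap, as had 63.7% of all targets, and kept their calls under each of the 17 alternatives. Without IV_AZ_if replicate 3, Aa_G159010.h1 and Aa_G44550.h1 were called as well, both higher in IV_AZ_if (edgeR adjusted p = 0.0126 and 0.0470), which made 5 calls. Each was also called without 1 or more III_PZ libraries: Aa_G159010.h1 without replicate 1 (edgeR adjusted p = 0.0309), and Aa_G44550.h1 without replicate 2 (0.0486) or 3 (0.0498). Aa_G316820.h2 was called lower in IV_AZ_if without IV_AZ_if replicate 2 (edgeR adjusted p = 0.0172).

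Between 5 and 7 weeks, 8 members rose in III_PZ over II_PZ and 1 fell, of 22 tested, where 26.6% of all targets rose and 31.1% fell. The largest rise was that of Aa_G350860.h1, 3.91 ± 0.44 on the log2 scale (SE; edgeR adjusted p = 6.91e-07), or 18.2 times in mean TPM. Aa_G44550.h1 rose by 1.72 ± 0.42 (SE; edgeR adjusted p = 0.00196), Aa_G325990.h1 by 1.19 ± 0.22 (SE; edgeR adjusted p = 0.000150) and Aa_G524720.h1 by 1.16 ± 0.36 (SE; edgeR adjusted p = 0.00990). The rise of Aa_G44550.h1 was 2.58 without II_PZ replicate 3, which held 1.80 TPM against 0.524 and 0.553 TPM in its group mates. Aa_G354910.h1, Aa_G214210.h1, Aa_G616440.h1 and Aa_G54410.h1 rose by 0.61 to 1.18. Of these, the call of Aa_G354910.h1 was lost without III_PZ replicate 3 (log2 fold change 0.65, edgeR adjusted p = 0.192), II_PZ replicate 1 (1.13, adjusted p = 0.0647) and II_PZ replicate 3 (1.12, adjusted p = 0.0636). That of Aa_G214210.h1 was lost without II_PZ replicate 1 (0.63, edgeR adjusted p = 0.0910) and III_PZ replicate 2 (0.73, adjusted p = 0.0527). Without III_PZ replicate 1, Aa_G159010.h1 was called lower in III_PZ (log2 fold change -2.03, edgeR adjusted p = 0.0478).

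The member that fell was Aa_G403750.h1, with 1 count in III_PZ and 17 in II_PZ, a ratio per depth of 0.0590 with a 95% exact interval of 0.00141 to 0.376 that covers counting error only. Its edgeR adjusted p was 0.0387. II_PZ replicate 3 held 12 of the 17 counts, and without it the ratio was 0.133, with an interval of 0.00282 to 1.19 and an adjusted p of 0.207 in edgeR. The call was also lost without III_PZ replicates 1, 2 and 3 (adjusted p = 0.105, 0.0542 and 0.112), and the fitted log2 fold change stayed below 0 each time.

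Between 4 and 5 weeks, 4 members rose in II_PZ over I_PZ and none fell, of 22 tested, where 9.33% of all targets rose and 6.78% fell. Aa_G480290.h1 rose by 1.73 ± 0.21 on the log2 scale (SE; edgeR adjusted p = 8.31e-05) and Aa_G214210.h1 by 1.45 ± 0.31 (SE; edgeR adjusted p = 0.00413), and both kept their calls under each of the 17 alternatives. Aa_G480290.h1 then stayed at 22.7 to 26.0 TPM at 7 weeks, and its step from 5 to 7 weeks did not pass. Aa_G354910.h1 rose by 1.54 ± 0.50 (SE; edgeR adjusted p = 0.0427). This call was lost without I_PZ replicates 2 and 3 (adjusted p = 0.171 and 0.108) and without II_PZ replicates 1, 2 and 3 (0.0690, 0.106 and 0.0947), with log2 fold changes of 1.27, 1.49, 1.59, 1.42 and 1.61 in the same order. Aa_G634060.h1 rose by 1.02 ± 0.29 (SE; edgeR adjusted p = 0.0231), a call lost without I_PZ replicates 1, 2 and 3 (adjusted p = 0.0654, 0.0746 and 0.0614, with log2 fold changes of 1.04, 1.02 and 1.00) and without II_PZ replicate 3 (0.213), where its log2 fold change was 0.59. Without I_PZ replicate 3, 3 members were called, among them Aa_G616440.h1 (log2 fold change 0.85, edgeR adjusted p = 0.00155). Without I_PZ replicate 2 or II_PZ replicate 3, 2 were. Calls were added for Aa_G524720.h1 without I_PZ replicate 1 (edgeR adjusted p = 0.0404), and for Aa_G403750.h1 and Aa_G54410.h1 without II_PZ replicate 1 (0.0417 and 0.0404). With the replicate number as a block, 6 members were called higher: the 4 above, Aa_G616440.h1 (edgeR adjusted p = 0.0498) and Aa_G403750.h1 (0.0413), which had no count in I_PZ. In a blocked fit of these groups alone, Aa_G634060.h1 was not called (edgeR adjusted p = 0.0524) and Aa_G616440.h1 was (0.0387).

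**Figure D4:**
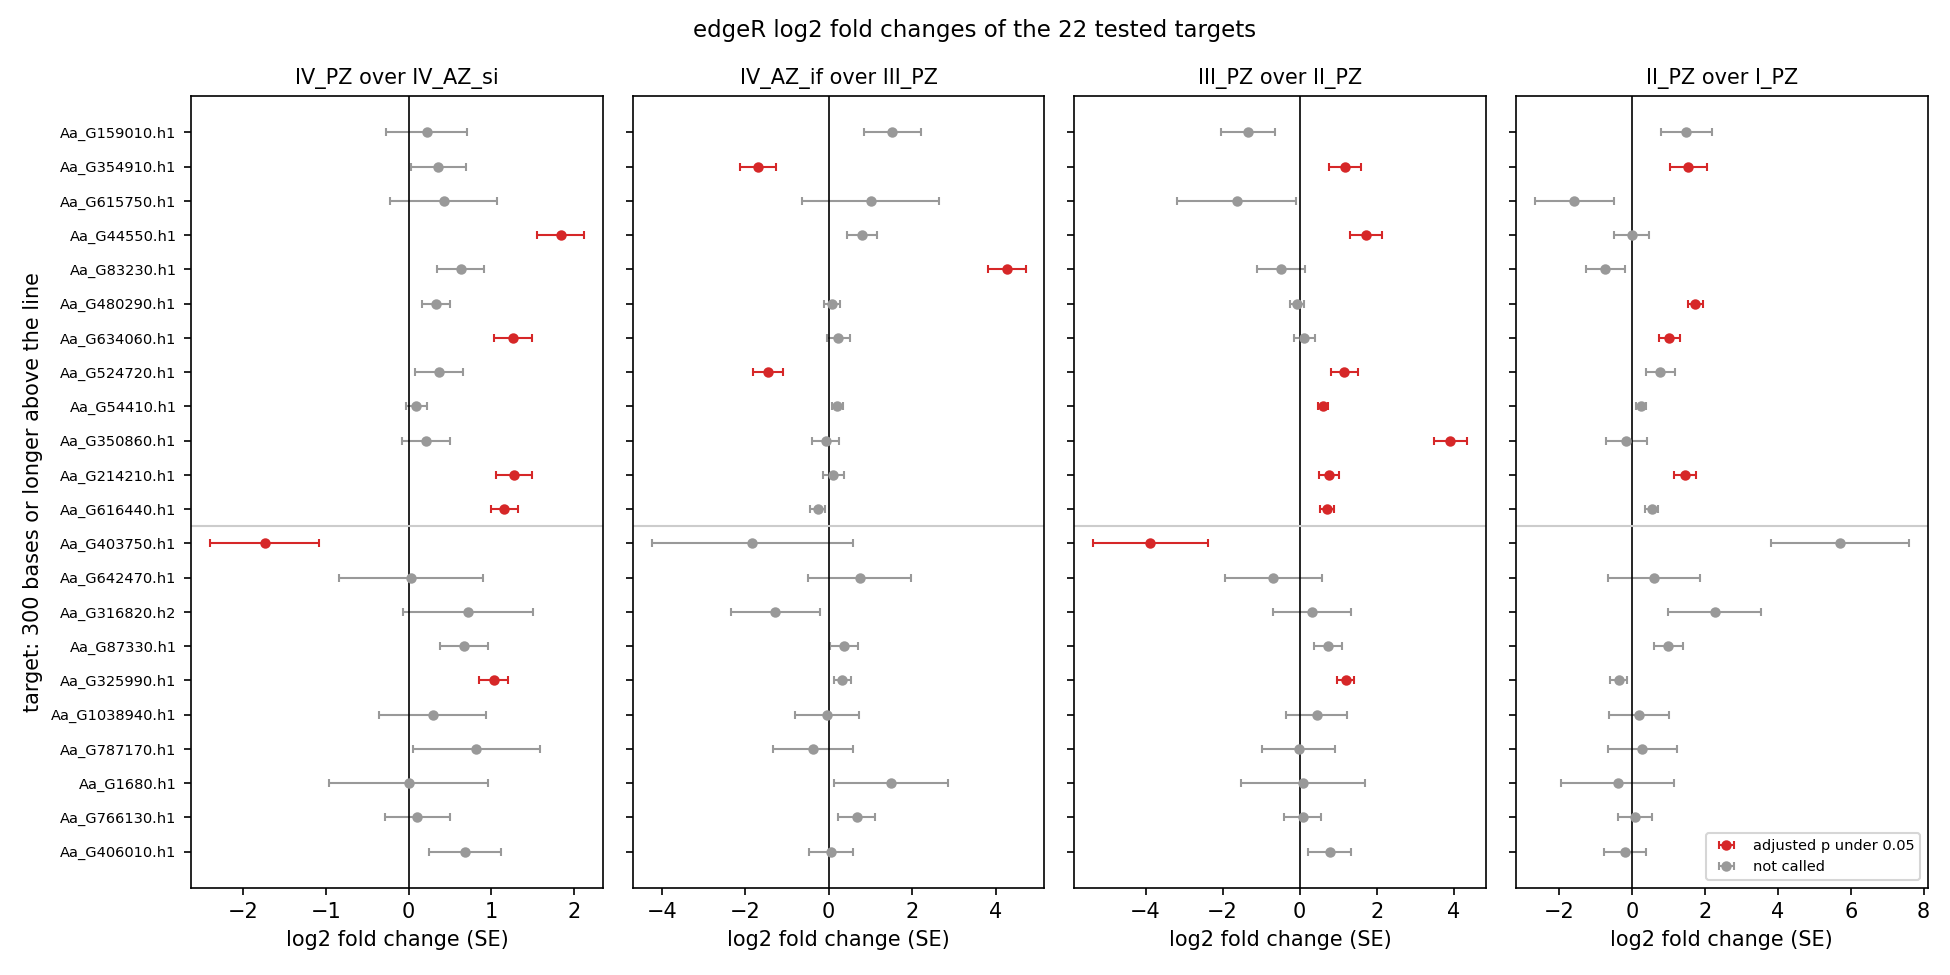
Log2 fold changes from edgeR with standard errors for the 22 members tested, in the 4 comparisons between groups on the same side of the gap; red marks an adjusted p under 0.05 over all 23528 targets. Most points lie right of 0 for IV_PZ over IV_AZ_si, Aa_G83230.h1 stands out at 4.27 for IV_AZ_if over III_PZ, and Aa_G350860.h1 at 3.91 for III_PZ over II_PZ. The comparisons share libraries of II_PZ and III_PZ.

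Within the short internode the highest and lowest values of the members were spread unevenly over the 4 libraries. The highest value was in replicate 3 for 15 members, in replicate 2 for 10, in replicate 1 for 3 and in replicate 4 for none, and the lowest was in replicate 4 alone for 12. For the 14421 targets with means of at least 5 TPM in both IV_PZ and IV_AZ_si, these shares were 21.9%, 28.1%, 30.6% and 19.3%, and replicate 4 was lowest in 32.4%. The rule used the means of both groups, which 1 high library can lift, so the members are not read against these shares. Of the 20 members with at least 10 counts in each library above the gap, 10 were highest in replicate 3 and 9 in replicate 2. The 12 longer targets were highest in replicate 3 for 7 and in replicate 2 for 5. Summed over the longer targets, IV_AZ_si replicates 1 to 4 held 393, 482, 477 and 369 TPM, and IV_PZ held 715, 785 and 722 TPM. In IV_PZ the highest value was in replicate 2 for 13 members, and replicate 2 was also highest for 49.2% of those 14421 targets.

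The membership itself moved with these libraries. Leaving out each library of IV_PZ or IV_AZ_si in turn left between 19 and 34 targets that met the rule, and 10 of the 28 met it each time: Aa_G403750.h1, Aa_G159010.h1, Aa_G354910.h1, Aa_G354260.h1, Aa_G480290.h1, Aa_G524720.h1, Aa_G54410.h1, Aa_G316820.h2, Aa_G616440.h1 and Aa_G87330.h1. Without IV_AZ_si replicate 3, 19 targets met the rule and 17 of them were members. The last members inside the threshold were Aa_G406010.h1 and Aa_G766130.h1, with gaps of 1.00 and 1.01. Just outside were Aa_G227750.h1 and Aa_G637760.h1, both with a gap of 0.98. Their means were 33.7 and 56.4 TPM in IV_PZ, and 42.3 and 34.1 TPM in IV_AZ_si. Under the level of 5 TPM, Aa_G544420.h1 had 4.65 TPM in IV_PZ and 4.93 TPM in IV_AZ_si. These means rest on 7 counts, with none in 4 of the 7 libraries, and IV_PZ replicate 3 held the whole IV_PZ sum. Aa_G494050.h1 had 4.04 TPM in IV_PZ and 6.01 TPM in IV_AZ_si, on 748 counts.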

How the data were processed

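RNA was sequenced from 19 libraries in 6 groups. Per the labels' protocols, total RNA was made into stranded TruSeq mRNA libraries. The submitters' processing notes name bcl2fastq and kallisto; versions and transcript reference: not given in the sources used here. Each library file the authors deposited holds, per the file headers, TPM, estimated count, length and effective length of 34220 targets; since 99.5% of lengths are multiples of 3, they are called coding lengths. A deposited table holds the same TPM values (largest difference 0) for 30158 of them. Totals were 21032841 to 27999048 counts per library, and counting intervals cover counting error only.

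The rule for members was applied to the TPM table. Estimated counts were rounded and tested with edgeR 4.0.16 (R 4.3.3; quasi-likelihood test, TMM scaling, default filter with minimum count 10 and minimum total 15) in 1 fit of all 19 libraries with a term for group; Benjamini-Hochberg adjustment ran over every target tested. Standard errors come from the test statistic. Members, lists and tests were chosen with earlier results of these data known. Named were the members with the largest gaps, highest IV_PZ level, largest called changes or most weight on 1 library, and those at the threshold; the remaining members were named to account for all. The split at 300 bases and at 10 counts was chosen after the values were seen. The test was tested on simulated counts, with the same spread for every target and changes only in well counted ones. That does not cover members with few counts, and no result here rests on it.

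Since kallisto divides reads among similar targets, members whose count was off a whole number by more than 0.001 are said to share reads. Among the 28 members, 1 had the same estimated counts as another target in every library. The labels call the replicates biological. Replicate numbers of II_PZ and I_PZ deviated together (correlations of 0.12, 0.20 and 0.28 over targets), though nothing in the labels pairs them, so blocked values are given there. Alternatives were RLE and TPM-scale size factors, no I_PZ replicate 3, the compared groups alone, DESeq2 1.42.0, no count filter, a fold of at least 2, limma-trend (limma 3.58.1) with a pseudocount of 1 or 0.1 on log2 TPM, a replicate block, the targets of the series table, and each replicate left out.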

Additional observations from a re-analysis of the deposited data

Results flagged for a closer look

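In IV_AZ_si, the group of 4 libraries, 2 of the 28 members had a library far from the others. For unselected groups, chance gives 1 in 20. The rule used the IV_AZ_si mean, which 1 high library can lift, so the count is not read against that rate. For Aa_G325990.h1 the highest library stood 0.891 of the whole range above the next, with 1359 TPM in replicate 3 and 985 to 1026 TPM in the others. Its log2 fold change of IV_PZ over IV_AZ_si was 1.15 without that library, against 1.03 with it. For Aa_G40830.h1 the ratio was 1, because replicate 3 held all 5 counts of the group.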

How the results depend on the processing

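The number of targets that met the rule, 28, was 19 to 34 when 1 library of IV_PZ or IV_AZ_si was left out and 5 with a gap of at least 2. It was 26 with a pseudocount of 0.1, 22 with medians and 20 with a minimum of 10 TPM; these 3 shared 20, 17 and 20 targets with the 28. It was 29 with I_PZ replicate 3, and 20 members had 10 counts in each library above the gap, a minimum chosen after seeing the data. With 1 library left out, edgeR called 5 to 6 members for IV_PZ over IV_AZ_si, 3 to 5 for IV_AZ_if over III_PZ, 7 to 9 for III_PZ over II_PZ and 2 to 5 for II_PZ over I_PZ, against 6, 3, 9 and 4 with all. Limma-trend on log2(TPM + 1) called 2 for II_PZ over I_PZ. No call of a member changed direction; 14 of the 22 calls held under every alternative and 8 were lost under some. The replicate block gave 6, 4, 10 and 6 calls. In the tested comparisons other than II_PZ over I_PZ, same-numbered libraries did not deviate together (correlations of -0.10 to 0.06), so these numbers may not pair the samples. Other pairs of groups were not checked. Size factors of the TPM scale moved the median log2 fold change over all targets to -0.19 for IV_AZ_if over III_PZ (0.01 with TMM) and to 0.22 for III_PZ over II_PZ (-0.03). The median of the members was then -0.04 and 0.65, against 0.16 and 0.38. On that scale, 5388 targets were higher and 8705 lower in IV_AZ_if than in III_PZ, 8913 higher and 5182 lower in III_PZ than in II_PZ, and 1516 higher and 2243 lower in II_PZ than in I_PZ, against 7011 and 6497, 6255 and 7306, and 2194 and 1595 with TMM. The calls of members were then 1 higher and 3 lower, 9 and 0, and 3 and 0. Low counts limit what can be said of the 8 members with under 10 counts in a library above the gap, all of them under 300 bases. Of these, 6 could not be tested.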
